A study of Mus musculus with 42 samples.

Results

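The 5 genes described here encode the mouse receptors for IgG and the chain through which the activating ones signal. Fcgr1, Fcgr2b, Fcgr3, Fcgr4 and Fcer1g were taken by symbol from 21897 protein-coding genes, and the rule uses no measured value. RNA polymerase II (Pol II) occupancy and the histone acetylation H3K27ac, which marks promoters and enhancers in use, were measured by chromatin immunoprecipitation with sequencing (ChIP-seq) in bone marrow-derived macrophages (BMDM). A gene's Pol II value is its number of normalized tags (scaled to 10 M tags a library, M standing for mega) over the gene body and 500 bp on either side. Its H3K27ac value is the number within 2500 bp of its start.

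The macrophages came from mice labelled C57Bl6/J, which were males aged 6 to 12 weeks, and were grown from bone marrow for 7 days in L929-conditioned medium. Wild-type (WT) cells were compared with cells from whole-body Nur77 knockout (KO) mice, which lack the nuclear receptor encoded by Nr4a1. According to the study's methods, the KO line was made by crossing a floxed Nr4a1 allele with mice expressing Cre from a CMV promoter and was then bred free of Cre, and WT littermates served as controls, whereas the genotype label of the KO libraries reads only "cre". Cells of both genotypes were left untreated (0 h) or were given 100 ng/ml lipopolysaccharide (LPS), the bacterial ligand of Toll-like receptor 4, for 1 or 18 h. That gave 6 groups, each with 3 libraries for either antibody (36 in all) and 1 input library without immunoprecipitation. The study's methods speak of biological replicates for the ChIP-seq peaks, but neither they nor the labels say whether replicate libraries came from separate animals or cultures, so p-values measure the spread between these libraries, which may be technical.

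Fc gamma receptors bind the constant part of IgG and let macrophages take up and destroy antibody-coated particles. The activating receptors FcγRI (Fcgr1, CD64, which binds monomeric IgG with high affinity), FcγRIII (Fcgr3, CD16) and FcγRIV (Fcgr4) pair with the common gamma chain encoded by Fcer1g, whose immunoreceptor tyrosine-based activation motif is phosphorylated by Src family kinases and recruits Syk. FcγRIIB (Fcgr2b, CD32) is the inhibitory receptor, and its tyrosine-based inhibitory motif recruits the phosphatase SHIP1. The balance of activating to inhibitory receptors sets how readily a macrophage answers to immune complexes.

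Fcgr1 (ENSMUSG00000015947) lies alone at chr3:96282909-96293969 of GRCm38, the assembly behind mm10. The other 4 lie within 275.7 kb of chromosome 1, in the order Fcgr2b (ENSMUSG00000026656, chr1:170958617-170976547), Fcgr4 (ENSMUSG00000059089, chr1:171018920-171029761), Fcgr3 (ENSMUSG00000059498, chr1:171051174-171064935) and Fcer1g (ENSMUSG00000058715, chr1:171229572-171234365). Gaps of 42.4, 21.4 and 164.6 kb separate them. Fcgr4 is transcribed on the plus strand and the other members on the minus strand. Of the 50-base words in the Fcgr2b window, 0.747% also occur in that of Fcgr3, and no other pair shared more than 16 such words. How the reads were placed between the receptor genes was not tested. An antisense gene, Gm38204, overlaps the Fcgr2b windows by 3675 bp for Pol II and 3700 bp for H3K27ac, and the tags do not tell the strands apart there.

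The promoter sequences are shown because they carry short motifs of factors known from macrophage and LPS transcription. The 250 bases before the RefSeq start (GRCm38.p6) are given 5′ to 3′ on the gene's strand, with motif matches in capitals. All 5 members matched the RefSeq promoters by symbol. The signal was instead read over genes and starts as GENCODE places them, and the RefSeq start lies 476 bp from the GENCODE start at Fcgr2b, 5532 bp from it at Fcgr3 (outside the H3K27ac window) and 0 to 16 bp from it at the others. Those of the 3 activating receptors and, without a match, of the inhibitory receptor are:
Fcgr1, chr3:96293970-96294219, minus strand: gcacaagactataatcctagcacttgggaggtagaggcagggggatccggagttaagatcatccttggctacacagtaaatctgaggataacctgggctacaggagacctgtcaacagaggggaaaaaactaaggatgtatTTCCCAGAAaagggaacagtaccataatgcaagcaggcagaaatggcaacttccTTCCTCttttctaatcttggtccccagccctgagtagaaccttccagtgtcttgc
Fcgr3, chr1:171059404-171059653, minus strand: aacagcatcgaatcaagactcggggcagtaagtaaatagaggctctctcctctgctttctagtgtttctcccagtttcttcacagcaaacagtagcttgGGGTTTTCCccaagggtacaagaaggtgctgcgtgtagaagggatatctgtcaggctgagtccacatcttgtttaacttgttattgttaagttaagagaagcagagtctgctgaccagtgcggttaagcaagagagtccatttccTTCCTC
Fcgr4, chr1:171018676-171018925, plus strand: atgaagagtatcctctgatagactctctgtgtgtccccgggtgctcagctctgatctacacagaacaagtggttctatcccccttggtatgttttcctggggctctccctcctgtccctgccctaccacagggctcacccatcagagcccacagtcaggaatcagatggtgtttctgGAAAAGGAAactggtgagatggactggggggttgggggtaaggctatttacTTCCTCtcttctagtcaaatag
Fcgr2b, chr1:170976072-170976321, minus strand: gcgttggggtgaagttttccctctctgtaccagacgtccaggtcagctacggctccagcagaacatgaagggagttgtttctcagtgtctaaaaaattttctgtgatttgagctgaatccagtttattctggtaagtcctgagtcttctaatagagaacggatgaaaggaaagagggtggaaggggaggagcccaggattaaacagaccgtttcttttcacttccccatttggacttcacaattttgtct

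Each motif was searched on both strands. The PU.1 core GAGGAA, held by 23.1% of 27025 RefSeq promoter windows of this length, occurred in the 3 activating receptors, beginning at -55 in Fcgr1, -6 in Fcgr3 and -22 in Fcgr4 relative to the start. PU.1 is the factor that specifies myeloid cells. The interferon-stimulated response element core GAAANNGAA (7.16% of promoters) occurred in Fcgr4 at -73. The interferon gamma-activated site TTCNNNGAA (7.18%) occurred in Fcgr1 at -109. The NF-kB core GGGNNTTCC (4.88%) occurred in Fcgr3 at -151. The AP-1 core TGANTCA (6.87%) and the Nur77 response element AAAGGTCA (1.31%) were in none of the 5 windows, and Fcgr2b and Fcer1g held no match to any of the 6 motifs. No 2 matches overlapped. They describe letters in the windows and nothing about binding.

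Pol II libraries held 21.7 to 36.1 M tags and H3K27ac libraries 13.5 to 55.4 M, and for H3K27ac the KO libraries (23.6 to 55.4 M) were on the whole deeper than the WT ones (13.5 to 31.1 M). The part of this depth gap in the H3K27ac differences was not tested. Pol II over the targeted gene Nr4a1 was 189, 188 and 208 tags in WT and 87.8, 76.1 and 70.2 in KO at 0 h (log2 change -1.22, SE 0.168, limma adjusted p = 1.2e-04, and 0.19 with a pseudocount of 1). It was low in both genotypes after LPS, with 25.5, 23.0 and 30.4 in WT and 33.5, 39.0 and 36.6 in KO at 1 h, and Pol II over the whole gene does not show the deleted part. The 10 macrophage markers carried Pol II in all 18 libraries, with Adgre1 (F4/80) at 4132 to 26869 tags. Their summed level was 24165 to 28474 tags in WT and 26854 to 28755 in KO at 0 h, 35301 to 37319 against 26735 to 27616 at 1 h, and 44049 to 46657 against 37736 to 40757 at 18 h. Adgre1 made up much of that sum. Of these 10 markers, 3 were called higher and 3 lower in KO at 1 h (median log2 change -0.01), and 1 higher and 4 lower at 18 h (median -0.12). Over all genes 4603 were higher and 909 lower (7.53%) of 12079 at 1 h (median 0.24). At 18 h it was 967 and 1712 (13.4%) of 12806 (median -0.1). The part of the markers in the members' differences was not tested. Of the markers of T and NK cells, B cells, neutrophils, mast cells and fibroblasts, Cd3e, Ncr1, Pax5, Ly6g, Mpo, Cpa3, Fcer1a and Col1a1 were at 0 in all 18, whereas Cd3d (23.1 to 97.0 tags), Lck (56.9 to 146) and Cd79a (33.9 to 116) carried Pol II in all 18 and Ms4a1 (up to 72.4) was at 0 in 3. The summed marker lists of T and NK cells (136 to 190.2 tags), B cells (41.4 to 161), neutrophils (0 to 30.2), mast cells (0 to 14.4) and fibroblasts (0 to 60.4) stayed far below the macrophage list, and that of dendritic cells (258 to 1375) was mostly Xcr1. In bulk ChIP-seq, fewer cells carrying a signal and less signal per cell cannot be told apart. Replicate 1 of KO at 18 h stood apart from the others of its group in H3K27ac at most members, and member calls that change without it are named. Leaving out replicate 1 of KO at 1 h moved the H3K27ac calls over all genes more, from 2156 to 5389 in KO against WT at 1 h, and member calls that change without it are named as well. The KO input at 18 h also stood apart, with 27554 regions against 64725 to 108461 in the other inputs, and every value with the input subtracted at 18 h rests on it.

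The receptor genes lost Pol II in KO most widely after LPS, and Fcgr2b had the largest loss of the 5 at 1 h (log2 change -1.67, beside -1.33 at Fcgr4) and at 18 h (-2.65, beside -0.91), while Fcgr4 had the largest at 0 h (-0.84, beside -0.36 at Fcgr2b). Before LPS, 2 of the 5 members (Fcgr4 and Fcgr2b) were lower in KO at an adjusted p under 0.05 in limma, against 2.71% of 13230 genes tested. At 1 h all 5 were lower, against 7.53% of 12079 genes, and at 18 h again all 5, against 13.4% of 12806. Averaged over the 3 times all 5 were lower, against 8.07% of 13674 genes, with Fcgr1 not called when read within 500 bp of the start (-0.16 in place of -0.33, adjusted p = 0.05). The median change of the 5 members was -0.3, -0.92 and -0.44 on the log2 scale at 0, 1 and 18 h, beside medians of 0.04, 0.24 and -0.1 over all genes tested. At 1 h the median gene thus lay above 0 in KO (at -0.005 once libraries were centred on their medians), while each member was called as lower under either scaling. The number of members called at 18 h fell to 2 (Fcgr2b and Fcgr4) when libraries were centred on their medians and to 3 when the input was subtracted.

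LPS itself moved Pol II at most genes, so calls between times say little about these members in particular. At 1 h in WT all 5 members were called (2 higher, 3 lower), against 86.9% of 13240 genes in either direction, and in KO all 5 (2 higher, 3 lower), against 82.9%. At 18 h, 5 members were called in WT (4 higher, 1 lower), against 66.5%, and 4 in KO (3 higher, 1 lower), against 70.1%. The genotype by LPS interaction, which subtracts the LPS change of WT from that of KO, was called as more negative in KO for 5 of 5 members at 1 h, against 4.22% of 13426 genes. At 18 h it was so called for 3 (Fcgr2b, Fcgr1 and Fcgr3), against 9.95% of 13566 genes. The comparisons of both times use the same untreated libraries, and the interaction uses libraries of the KO and WT comparisons, so these counts are not independent of each other.

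**Figure D1:**
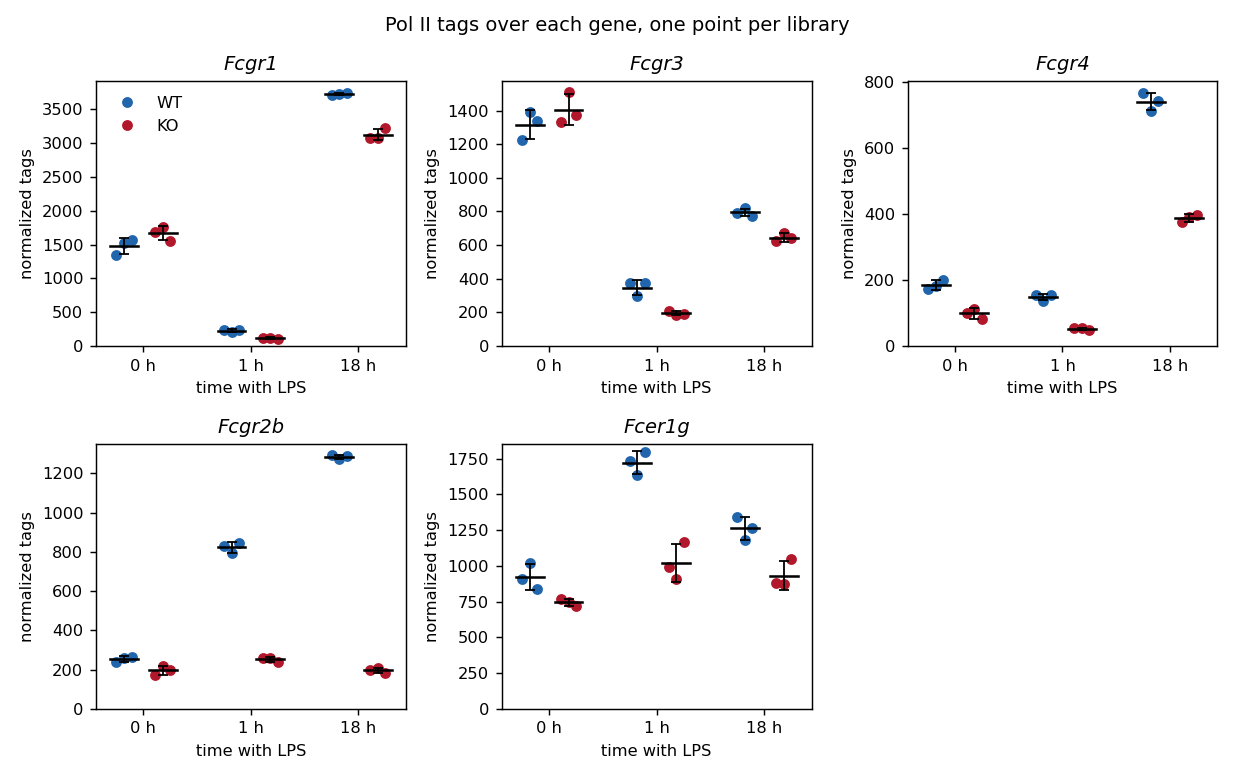
Pol II normalized tags over each of the 5 genes (vertical axis, from 500 bp before the start to 500 bp past the end) in WT and KO at 0, 1 and 18 h of LPS; points are single libraries, and the black lines are group means with SD (n = 3). At Fcgr2b the WT libraries reach 1272 to 1293 tags at 18 h while the KO libraries stay between 182 and 207.

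Fcgr2b, the inhibitory receptor, gained Pol II after LPS at both times in WT and, in KO, by a smaller amount at 1 h. The WT libraries held 238, 259 and 266 tags before LPS, 831, 793 and 846 after 1 h and 1293, 1272 and 1286 after 18 h. The KO libraries held 171, 219.9 and 197 before LPS, 261, 259 and 236 after 1 h and 199.6, 207 and 182 after 18 h. Every KO library was below every WT library at each time, and the gap widened from 1.3-fold at 0 h to 3.27-fold at 1 h and 6.55-fold at 18 h between group means. In WT the mean rose 3.24-fold by 1 h and 5.06-fold by 18 h, from 254 ± 14.3 to 823 ± 27.2 and 1284 ± 10.4 (SD, n = 3). In KO it went from 196 ± 24.3 to 252 ± 13.8 and back to 196 ± 12.9.

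By limma, Fcgr2b was lower in KO by a log2 change of -0.36 at 0 h (SE 0.086, adjusted p = 0.014), -1.67 at 1 h (SE 0.087, adjusted p = 1.6e-10) and -2.65 at 18 h (SE 0.086, adjusted p = 2.7e-13). The small difference before LPS was no longer called without KO replicate 1 or without WT replicate 3 (adjusted p = 0.051 to 0.074), nor with a common density floor (adjusted p = 0.21) or within 500 bp of the start (-0.25, adjusted p = 0.31). The LPS change at 18 h was 2.29 in WT (SE 0.086, adjusted p = 9.2e-14) and 0.01 in KO, with a 95% interval of -0.17 to 0.19. Their difference was -2.29 (SE 0.121, adjusted p = 1.5e-09). At 1 h the LPS changes were 1.66 in WT and 0.35 in KO (adjusted p = 0.0011), where the median gene changed by -0.62. That gain in KO was 0.93 with median centring (adjusted p = 6.5e-09) and 0.22, not called, within 500 bp of the start (adjusted p = 0.1). The difference between the genotypes at 1 h was -1.31 (SE 0.121, adjusted p = 1.7e-06). Both interactions and the lower Pol II in KO at 1 and 18 h kept their call in every alternative run. The input at 18 h held 195 tags over Fcgr2b in WT and 0 in KO (no region was found), and the KO input held few regions anywhere. With the input subtracted, the LPS change of Fcgr2b in KO at 18 h was 0.43 (adjusted p = 0.0013).

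Regions of Pol II covered the whole Fcgr2b window in all WT libraries at 1 and 18 h. In KO they covered 66.6 to 81.2% of it at 1 h and 50.5 to 63.3% at 18 h. Called regions thus took up less of the gene in KO, and how much of the difference in tags came with that was not tested.

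H3K27ac around the Fcgr2b start differed in the same direction as Pol II. WT libraries held 134, 161 and 136 tags before LPS, 308, 336 and 339 after 1 h and 623, 591 and 628 after 18 h. KO libraries held 108, 101 and 94.8 before LPS, 127, 157 and 135 after 1 h and 208, 163 and 147 after 18 h. No KO library reached the lowest WT library of its time, and the KO libraries at 18 h were near the level of the WT libraries before LPS. The log2 change of KO against WT was -0.46 at 0 h (SE 0.116, adjusted p = 0.093, and 0.015 to 0.044 without KO replicate 1 at 1 h or at 18 h; with either scaling or a 5000 bp window it was called, at 0.0065 to 0.049), -1.18 at 1 h (SE 0.116, adjusted p = 1.7e-05) and -1.79 at 18 h (SE 0.116, adjusted p = 6.6e-08). The gain after 18 h of LPS came to 2.03 in WT against 0.7 in KO, both called, and the interaction was -1.33 (SE 0.163, adjusted p = 0.0015). Without KO replicate 1 at 18 h the change in KO at that time was -1.92 (adjusted p = 1.8e-08).

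**Figure D2:**
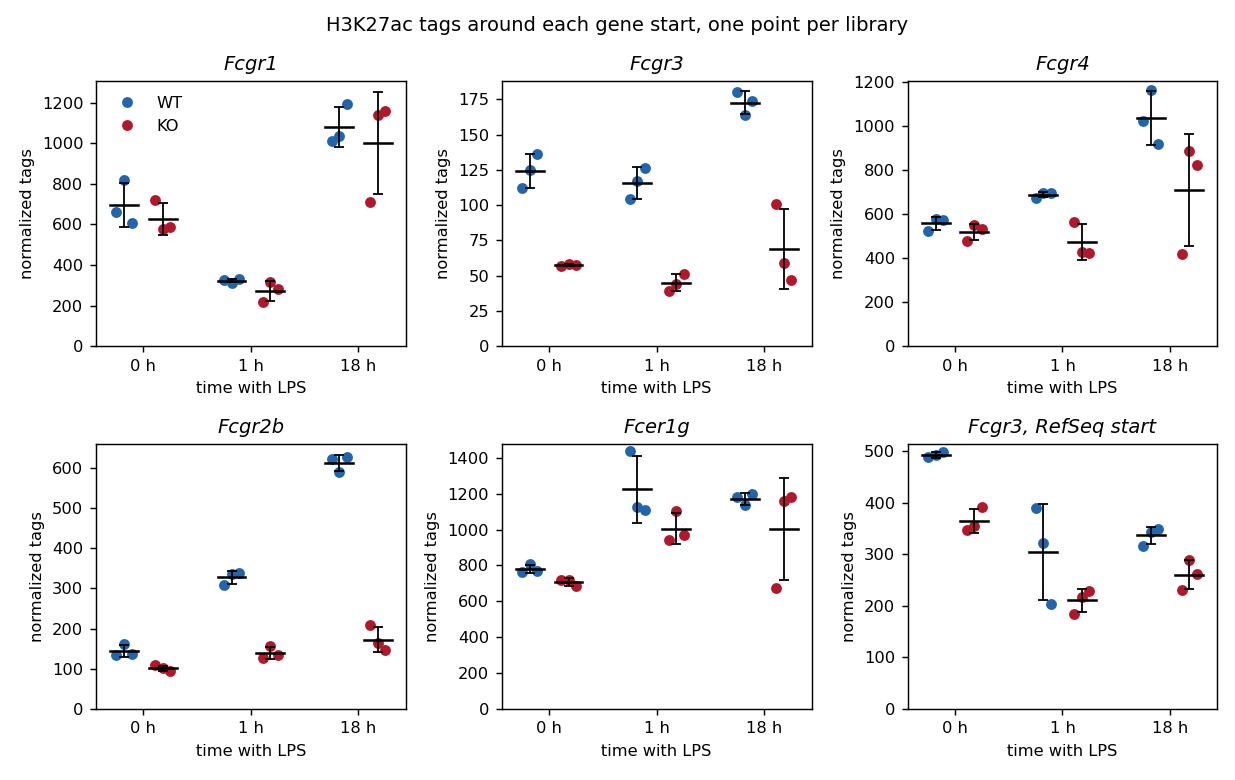
H3K27ac normalized tags within 2500 bp of the start of each of the 5 genes in WT and KO at 0, 1 and 18 h of LPS; points are single libraries, the black lines are group means with SD (n = 3), and the last panel shows Fcgr3 around its RefSeq start. Fcgr2b rises to 591 to 628 tags in WT at 18 h and to 147 to 208 in KO, while at Fcgr1 and Fcer1g the ranges of the genotypes overlap at 18 h.

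The signal around Fcgr2b was also read in 4 intervals, chosen after the profile along the locus had been seen, so they are given as levels per kb without a test. From 2 kb before to 5 kb after the start, H3K27ac at 18 h was 136, 120.4 and 134 tags per kb in WT and 46.3, 35.6 and 32.8 in KO. At 7 to 11 kb before the start it was 96.4, 100.4 and 101 in WT and 39.5, 69.6 and 63.8 in KO. At 19 to 24 kb before the start, already the most acetylated of the 4 intervals before LPS (means of 173 in WT and 134 in KO), it was 263, 166 and 182 in WT and 108, 149.9 and 162 in KO. KO libraries were below WT libraries in each of these 3 intervals, and the ratio of the means was widest at the start itself (130.2 against 38.2). Pol II at 18 h had means of 58.3 in WT and 11.7 in KO at the start, 41.8 and 18.8 at 7 to 11 kb, and 67.2 and 45.5 at 19 to 24 kb. Past the gene's end, at 20 to 27 kb from the start, Pol II was 64.6 in WT and 20.4 in KO per kb, while H3K27ac was 115 and 92.8.

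**Figure D3:**
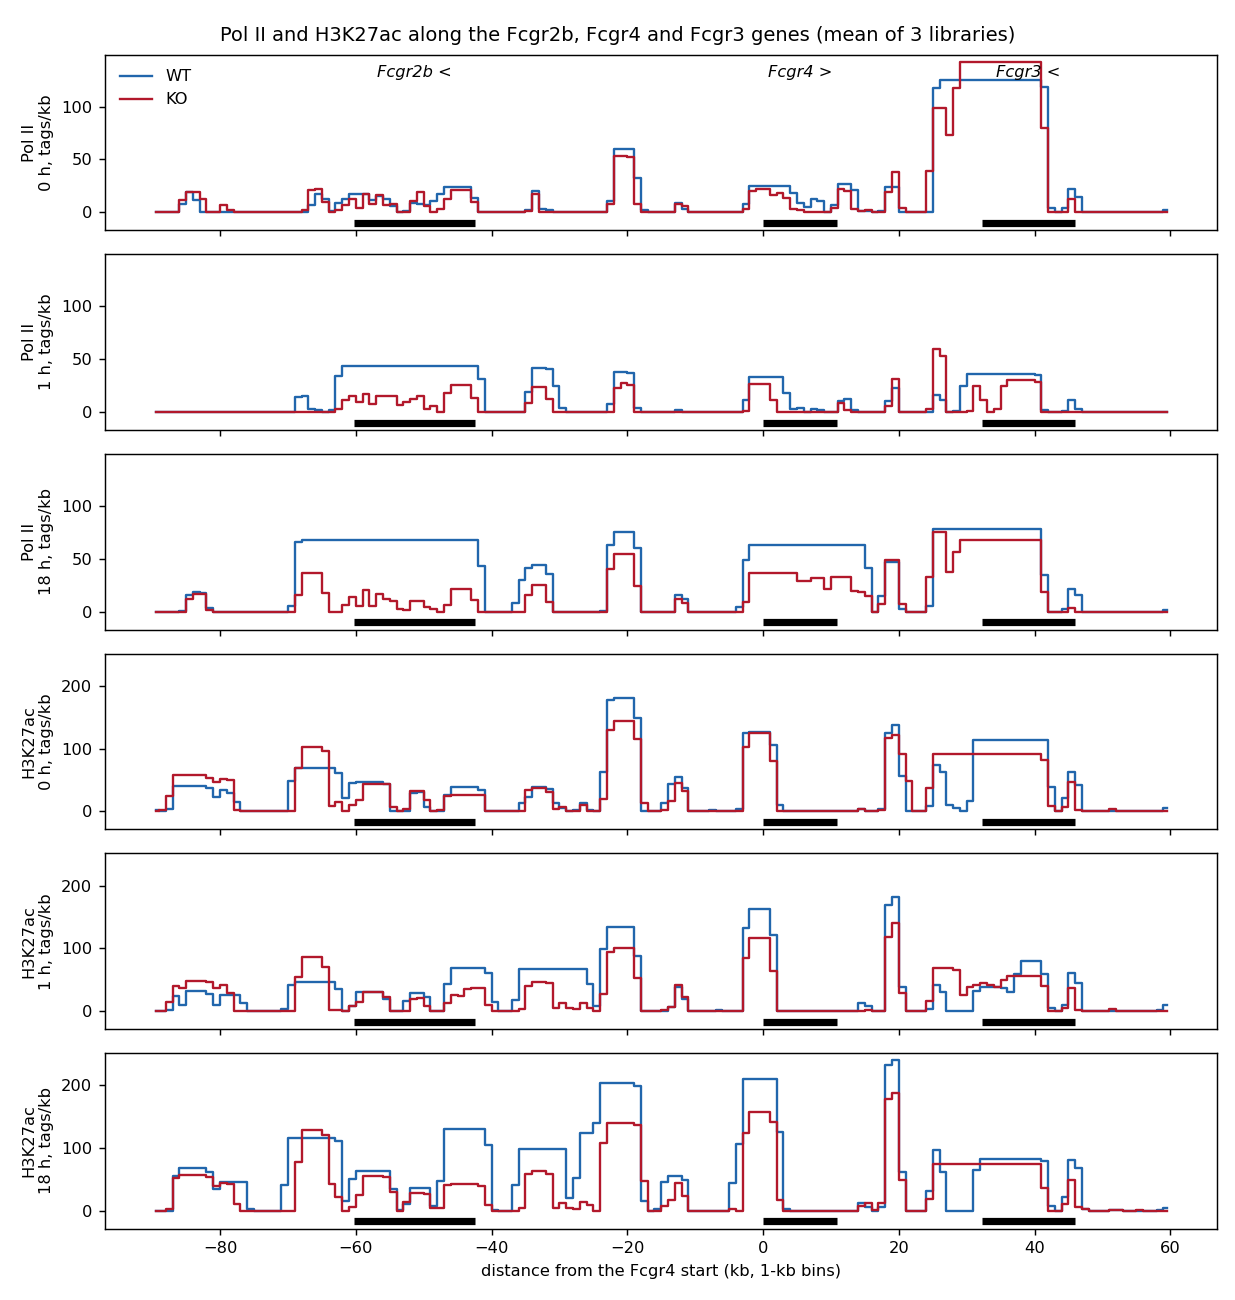
Mean Pol II and H3K27ac normalized tags per kb along the Fcgr2b, Fcgr4 and Fcgr3 genes in WT and KO at 0, 1 and 18 h (horizontal axis, distance from the Fcgr4 start in kb; black bars are gene bodies, < and > give the strand, and lines are means of 3 libraries in 1-kb bins, flat where 1 region's tags were spread evenly over its length). At 18 h the WT line lies above the KO line over the whole Fcgr2b body in Pol II, and around its start H3K27ac has means of 130.2 and 38.2 tags per kb.

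Fcgr4, the activating receptor nearest to Fcgr2b, was the other receptor gene with less Pol II in KO at every time. WT libraries held 172, 181 and 202 tags before LPS, 154, 137 and 154 after 1 h and 768, 715 and 743 after 18 h. KO libraries held 99.8, 114 and 83.2 before LPS, 53.6, 55.6 and 50.0 after 1 h and 377, 392 and 399 after 18 h. The ranges did not overlap at any time, and the KO mean was 1.87-, 2.79- and 1.91-fold lower at 0, 1 and 18 h. The log2 changes were -0.84 (SE 0.102, adjusted p = 3.0e-05), -1.33 (SE 0.102, adjusted p = 2.7e-08) and -0.91 (SE 0.102, adjusted p = 4.0e-06). Within 500 bp of the start alone they were -0.12 at 0 h (adjusted p = 0.65) and -0.25 at 1 h (adjusted p = 0.089), and the average over times was -0.34 in place of -1.03, so at those times the difference was called over the body and not around the start.

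The late LPS gain of Fcgr4 was 4.01-fold in WT and 3.93-fold in KO (log2 changes 1.95 and 1.88). The interaction at 18 h was -0.07 (SE 0.143, adjusted p = 0.79), in contrast to Fcgr2b, and its sign turned in 4 other settings and without KO replicate 2 at 0 h. Within 500 bp of the start the gain in KO was 0.53 (adjusted p = 4.9e-04), and the interaction was larger, at -0.52, and not called (adjusted p = 0.078). At 1 h the level fell in KO (log2 change -0.78, adjusted p = 1.5e-06) more than in WT (-0.3, adjusted p = 0.011), with an interaction of -0.48 (SE 0.143, adjusted p = 0.028). That interaction was lost when any 1 of 6 libraries was left out (adjusted p = 0.05 to 0.072), namely KO replicates 1 and 2 at 0 h, KO replicate 3 at 1 h, WT replicate 2 at 0 h and WT replicates 1 and 3 at 1 h. Within 500 bp of the start it was -0.13 (adjusted p = 0.7), and with the input subtracted -0.86 (adjusted p = 8.3e-04). The decrease in WT at 1 h was lost without WT replicate 3 at 0 h or WT replicate 2 at 1 h (adjusted p = 0.051 to 0.054). In KO the decrease was not called with median centring (-0.21, adjusted p = 0.063), and the change was 0.05 with quantile normalization and 0.19 within 500 bp of the start, neither called. The decrease in WT was smaller than that of the median gene (-0.82) and became a called increase of 0.5 under either scaling and of 0.31 within 500 bp of the start.

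H3K27ac at the Fcgr4 start showed wider spread. WT libraries held 525, 579 and 573 tags before LPS, 675, 696 and 696 after 1 h and 1023, 1166 and 919 after 18 h. KO libraries held 479.6, 549 and 531 before LPS, 566, 426 and 425 after 1 h and 419.5, 885 and 823 after 18 h. The genotypes overlapped at 0 h and not at 1 or 18 h. None of the 3 single times passed the test (log2 changes -0.1, -0.55 and -0.61, adjusted p = 0.96, 0.064 and 0.1), but in a 5000 bp window KO was called as lower at 1 h (-0.57, adjusted p = 0.039) and at 18 h (-0.87, adjusted p = 0.014). The average over times was -0.42 (adjusted p = 0.04), a call that was lost in 13 of the 18 runs that left out 1 library (adjusted p = 0.06 to 0.085), all but those without KO replicate 1 at 1 h, any KO library at 18 h or WT replicate 3 at 18 h. It was also lost with median centring (adjusted p = 0.053), without the filter (0.11), with the replicate block (0.054) and in a 1000 bp window (-0.31, adjusted p = 0.083). Without KO replicate 1 at 18 h the change at 18 h was -0.27 (adjusted p = 0.22) and the average -0.31 (adjusted p = 0.0085). The change at 1 h was called without KO replicate 1 at 1 h or KO replicate 1 or 2 at 18 h (adjusted p = 0.0027 to 0.047), and that at 18 h without KO replicate 2 (-0.8, adjusted p = 0.031). The LPS change at 18 h was 0.87 in WT (adjusted p = 0.0018) and 0.37 in KO (adjusted p = 0.13). Without KO replicate 1 at 18 h that in KO was 0.71 (adjusted p = 1.3e-04). The LPS change at 1 h in WT was 0.3 (adjusted p = 0.22, and 0.024 without the same library).

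Fcgr1 carried the most Pol II per kb of the 4 receptor genes before LPS and at 18 h, fell steeply at 1 h and rose past its starting level by 18 h. WT libraries held 1342, 1523 and 1576 tags before LPS, 244, 203 and 242 after 1 h and 3716, 3726 and 3738 after 18 h. KO libraries held 1688, 1758 and 1558 before LPS, 118, 127 and 105 after 1 h and 3070.2, 3084 and 3222 after 18 h. The genotypes overlapped before LPS and were separate after it, with KO lower. At 1 h the mean had dropped 6.44-fold in WT and 14.3-fold in KO, and at 18 h it stood 2.52-fold and 1.87-fold above 0 h. Within 500 bp of the start the drop at 1 h was smaller, from 123 to 29.1 tags in WT and from 138 to 20.1 in KO.

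The log2 change of Fcgr1 in KO was 0.17 at 0 h (SE 0.082, adjusted p = 0.26), -0.92 at 1 h (SE 0.083, adjusted p = 1.9e-07) and -0.25 at 18 h (SE 0.083, adjusted p = 0.037). The difference at 18 h was no longer called when any 1 of the 6 libraries compared was left out (adjusted p = 0.061 to 0.099), with libraries centred on their medians (log2 change -0.12, adjusted p = 0.26), without the filter, in either other window, with the density floor or with the replicate block (adjusted p = 0.054 to 0.21), whereas with quantile normalization it was -0.44 (adjusted p = 2.0e-04). Every Pol II window of Fcgr1 had means of 309 tags per kb in WT and 259 in KO at 18 h, so the other windows are not separate measurements there. Within 500 bp of the start the 1 h change was -0.39 (adjusted p = 0.0058) and the 1 h interaction -0.55 (adjusted p = 0.02). The input held 176 tags over Fcgr1 in WT and 13.9 in KO at 18 h, and with the input subtracted the change was -0.19 (adjusted p = 0.14). The interaction was -1.09 at 1 h (SE 0.116, adjusted p = 7.9e-06) and -0.43 at 18 h (SE 0.116, adjusted p = 0.02). The latter was lost with median centring (-0.26, adjusted p = 0.083), within 500 bp of the start (adjusted p = 0.1), with the input subtracted (adjusted p = 0.061) and with a common density floor (adjusted p = 0.15).

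Around the Fcgr1 start, H3K27ac followed the same course over time with no call between genotypes. WT libraries held 662, 817 and 607 tags before LPS, 327, 313 and 329 after 1 h and 1011, 1034 and 1191 after 18 h. KO libraries held 718, 576 and 585, then 218, 315 and 279, then 711, 1139 and 1157. The ranges overlapped at each time. The 1 h decrease was called in both genotypes (log2 changes -1.07 and -1.19), as was the 18 h increase (0.63 and 0.64). The 18 h increase was not called in WT with quantile normalization (0.36, adjusted p = 0.054) or in KO in a 1000 bp window (0.34, adjusted p = 0.087), and in a 5000 bp window it was 1.14 and 1.19. The change in KO at 18 h was -0.13 (adjusted p = 0.72) and 0.09 (adjusted p = 0.77) without KO replicate 1 of that time.

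Over the whole gene, Fcgr3 was the receptor gene whose Pol II stayed below its untreated level at both LPS times. Within 500 bp of the GENCODE start alone, the 18 h change on the log2 scale was -0.01 in WT (limma adjusted p = 0.98) and -0.56 in KO (adjusted p = 0.032). The 1 h decreases there were -0.72 in WT and -0.83 in KO, in place of -1.89 and -2.79. Levels in that window were low, with means of 22.4 and 9.7 tags in WT and 8.08 and 0 in KO at 0 and 1 h. In KO the log2 decrease is thus limited by the 10 tags added before taking logs. Across the gene, WT libraries held 1222, 1389 and 1338 tags before LPS, 372, 299 and 373 after 1 h and 791, 818 and 775 after 18 h. KO libraries held 1332, 1509 and 1375 before LPS, 207, 186 and 191 after 1 h and 622, 672 and 642 after 18 h. As at Fcgr1, the genotypes overlapped before LPS and KO lay below WT after it. The mean fell 3.78-fold in WT and 7.21-fold in KO at 1 h, and was 1.66-fold and 2.18-fold below 0 h at 18 h.

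Against WT the log2 change of Fcgr3 in KO was 0.09 at 0 h (SE 0.085, adjusted p = 0.61, but called at -0.86 with adjusted p = 0.029 within 500 bp of the GENCODE start), -0.8 at 1 h (SE 0.085, adjusted p = 1.4e-06) and -0.3 at 18 h (SE 0.085, adjusted p = 0.019). The last was lost without KO replicate 1, KO replicate 3 or WT replicate 2 of that time (adjusted p = 0.053 to 0.069), with median centring (-0.16, adjusted p = 0.14) and with the input subtracted (-0.06, adjusted p = 0.71), whereas within 500 bp of the GENCODE start it was -1.41 (adjusted p = 2.9e-04). The average over times was -0.33, and -1.08 in that window. The input over Fcgr3 at 18 h held 136 tags in WT and 13.6 in KO. The interaction was -0.89 at 1 h (SE 0.12, adjusted p = 8.7e-05, and -0.11 with adjusted p = 0.87 within 500 bp of that start) and -0.39 at 18 h (SE 0.12, adjusted p = 0.037). In that window all KO libraries were at 0 at 1 h, so the interaction there cannot show a deeper loss. The 18 h interaction was lost under 7 other settings, among them median centring, quantile normalization and input subtraction (adjusted p = 0.16, 0.089 and 0.43), and in 7 of the 18 runs that left out 1 library (adjusted p = 0.054 to 0.09), those without KO replicate 2 or WT replicate 1 at 0 h, KO replicates 1 or 3 at 18 h or any WT library at 18 h.

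The H3K27ac value of Fcgr3 depended on where the gene was taken to start. The GENCODE start used for all genes lies 5532 bp before the RefSeq start, where the promoter shown above ends. Around the GENCODE start WT libraries held 112, 125 and 136 tags before LPS, 104, 117 and 126 after 1 h and 180.2, 164 and 174 after 18 h. KO libraries held 56.6, 58.4 and 57.3, then 39.1, 44.3 and 51.3, then 101, 58.6 and 47.1. KO was lower throughout, with log2 changes of -0.99 at 0 h (SE 0.182, adjusted p = 0.012), -1.2 at 1 h (SE 0.182, adjusted p = 0.0011) and -1.27 at 18 h (SE 0.182, adjusted p = 7.7e-04). The 0 h call was lost in 5 of the 18 runs that left out 1 library, those without any KO library or without WT replicate 2 or 3 at 0 h (adjusted p = 0.054 to 0.071). With the input subtracted it was also lost (-0.65, adjusted p = 0.17).

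Around the RefSeq start, an alternative chosen after seeing the data, the Fcgr3 level was higher and the difference smaller. WT libraries held 488, 493 and 499 tags before LPS, 389, 321 and 204 after 1 h and 317, 344 and 349 after 18 h. KO libraries held 348, 355 and 392, then 185, 218 and 229, then 231, 288 and 262. The log2 changes were -0.43, -0.47 and -0.36 (adjusted p = 0.35, 0.053 and 0.22), and only the average over times was called (-0.42, adjusted p = 0.016). At this start H3K27ac fell with LPS at 1 h (log2 change -0.72 in WT, adjusted p = 0.0013, and -0.77 in KO, adjusted p = 0.0011), where around the GENCODE start the changes were -0.1 and -0.3 and not called. The latter was called without KO replicate 1 at 18 h (adjusted p = 0.03). At the RefSeq start H3K27ac was also lower at 18 h (log2 change -0.54 in WT, adjusted p = 0.011, and -0.48 in KO, adjusted p = 0.021), whereas around the GENCODE start the 18 h changes were 0.44 (adjusted p = 0.053) and 0.17 (adjusted p = 0.46). The increase in WT was called without KO replicate 1 at 1 h or KO replicate 1 or 3 at 18 h (adjusted p = 0.0029 to 0.043). Those 18 h increases were called with quantile normalization (0.52, adjusted p = 0.0042, and 0.47, adjusted p = 0.0086), while a 5000 bp window gave -0.49 in KO (adjusted p = 0.043) and called decreases at 1 h (-0.6 in WT and -0.74 in KO).

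Fcer1g, the signalling chain shared by the activating receptors, gained Pol II at 1 h, and at 18 h it was still above its untreated level, though the 18 h change was not called with quantile normalization (0.12 in WT, limma adjusted p = 0.35, and 0.09 in KO, adjusted p = 0.49). WT libraries held 909, 1019 and 837 tags before LPS, 1734, 1636 and 1793 after 1 h and 1343, 1181 and 1265 after 18 h. KO libraries held 766, 745 and 721 before LPS, 993, 905 and 1166 after 1 h and 877, 869.6 and 1048 after 18 h. KO libraries were below WT libraries at each time. The log2 changes were -0.3 at 0 h (SE 0.096, adjusted p = 0.069, and 0.025 with quantile normalization or 0.045 to 0.047 without WT replicate 3 at 0 h or KO replicate 3 at 1 h), -0.75 at 1 h (SE 0.096, adjusted p = 9.9e-06) and -0.44 at 18 h (SE 0.096, adjusted p = 0.003; -0.3 with median centring, adjusted p = 0.051). The gain at 1 h was 1.87-fold in WT and 1.37-fold in KO (log2 changes 0.9 and 0.44, and 1.69 and 1.02 with median centring), with an interaction of -0.45 (SE 0.135, adjusted p = 0.028) that was lost when any 1 of 6 libraries was left out (adjusted p = 0.051 to 0.08), namely KO replicates 1 and 2 at 0 h and at 1 h and WT replicate 3 at 0 h and at 1 h. It was also lost with quantile normalization (-0.3, adjusted p = 0.25), without the filter (adjusted p = 0.062) and within 500 bp of the start (adjusted p = 0.081). At 18 h the interaction was -0.14 (adjusted p = 0.54), and the 18 h gain in KO was lost without KO replicate 3 at 18 h (log2 change 0.23, adjusted p = 0.053).

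The Fcer1g values were not its own alone. In every library 1 broad Pol II region covered its whole window and ran on over the neighbouring Apoa2, and sharing a region by overlap gives both genes the same density. Accordingly, the Pol II values of Fcer1g and Apoa2, 3193 bp apart, had a correlation of 1.0 over the 18 libraries. Within 2500 bp of the Fcer1g start, in H3K27ac, WT libraries held 763, 806 and 769 tags before LPS, 1441, 1127 and 1108 after 1 h and 1180, 1135 and 1197 after 18 h. KO libraries held 719, 720.4 and 685, then 942, 1105 and 969, then 673, 1157 and 1179.7, and no time was called (adjusted p = 0.89, 0.23 and 0.38). Without KO replicate 1 at 18 h the difference at 1 h was called (log2 change -0.28, adjusted p = 0.032) and that at 18 h was -0.0 (adjusted p = 0.99). The gain with LPS was called in WT at 1 h (0.64) and 18 h (0.58) and in KO (0.5 and 0.45). With quantile normalization neither 18 h gain was called (0.3 in WT, adjusted p = 0.093, and 0.3 in KO, adjusted p = 0.084), and without the filter neither gain in KO (adjusted p = 0.054 and 0.073). In KO the call at 1 h was lost without KO replicate 3 at 0 h or replicate 2 at 1 h (adjusted p = 0.058 to 0.07), and that at 18 h without any KO library at 0 h or KO replicate 2 or 3 at 18 h (adjusted p = 0.055 to 0.14).

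In H3K27ac, 1 of the 5 members (Fcgr3) was lower in KO at 0 h, against 0.305% of 11817 genes tested. Fcgr2b and Fcgr3, 2 members, were lower at 1 h, against 7.26% of 11829, and again at 18 h, against 2.25% of 11465. Averaged over times 3 were lower (with Fcgr4), against 3.16% of 12281. The Fcgr3 calls at single times rest on its GENCODE start. LPS changes were called in either direction for 3 members at 1 h in WT, against 54.5%, 3 at 1 h in KO, against 46.9%, 4 at 18 h in WT, against 49.9%, and 3 at 18 h in KO, against 52.6%. The interaction at 1 h was called for 0 members, against 0.436% of 12154 genes. By limma 1 member, Fcgr2b, had an unadjusted p under 0.05 there (log2 change -0.72, adjusted p = 0.067), as had 2492 of all genes, and it was called without KO replicate 1 at 1 h or KO replicate 1 at 18 h (adjusted p = 0.008 to 0.0099) and under 5 other settings, both scalings included (adjusted p = 0.0071 to 0.037). At 18 h the interaction was called for 1 member, Fcgr2b, against 0.456% of 12067 genes. The calls over all genes behind such shares move with single libraries. In either direction they numbered 73 for the 18 h interaction (26 without KO replicate 2 at 0 h and 346 without KO replicate 1 at 1 h), 91 at 0 h (252 without KO replicate 1 at 18 h) and 367 at 18 h (172 without WT replicate 1 at 18 h).

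**Figure D4:**
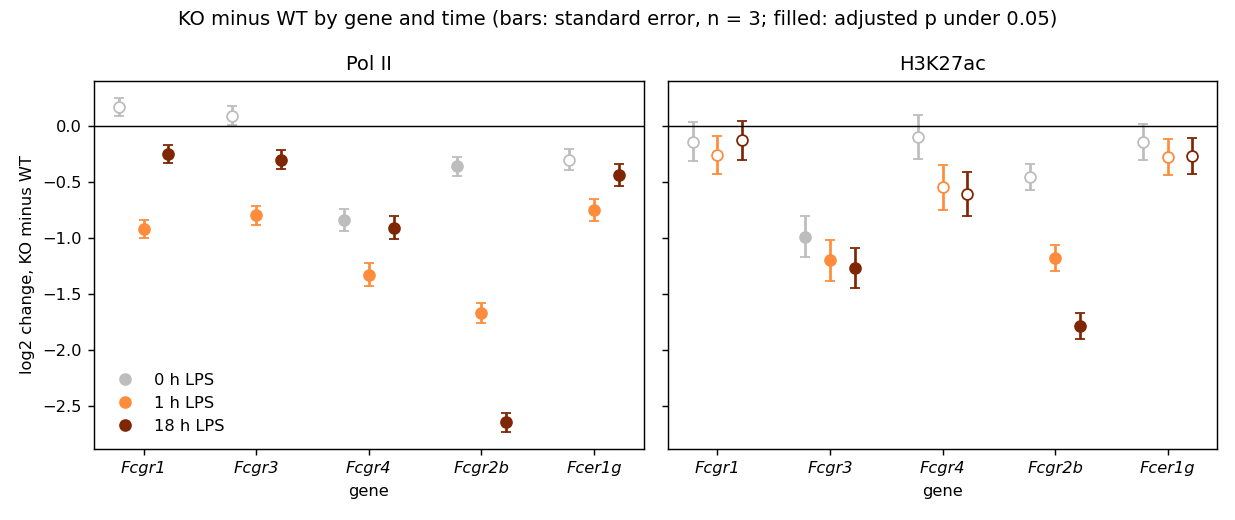
Log2 change in KO against WT (vertical axis, limma on log2(normalized tags + 10)) of the 5 genes at 0, 1 and 18 h for Pol II and H3K27ac; points are estimates, filled where the adjusted p is under 0.05, and bars are standard errors (n = 3). Fcgr2b moves from -0.36 to -1.67 and -2.65 in Pol II and from -0.46 to -1.18 and -1.79 in H3K27ac.

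Compared per kb of gene, which allows levels to be set side by side, the order of the receptors changed with time. In untreated WT cells Pol II was 123 tags per kb at Fcgr1, 89.2 at Fcgr3, 15.6 at Fcgr4 and 13.4 at Fcgr2b. At 1 h Fcgr2b led with 43.5, ahead of Fcgr3 (23.6), Fcgr1 (19.1) and Fcgr4 (12.5). At 18 h Fcgr1 led again with 309, and Fcgr2b (67.8), Fcgr4 (62.7) and Fcgr3 (53.8) followed. In KO the order at 0 h was Fcgr1 (138), Fcgr3 (95.2), Fcgr2b (10.4) and Fcgr4 (8.37). At 1 h Fcgr2b and Fcgr3 were level at 13.3 and 13.2, above Fcgr1 (9.67) and Fcgr4 (4.48). At 18 h Fcgr2b was last, with 10.4 against 259 at Fcgr1, 43.7 at Fcgr3 and 32.9 at Fcgr4. Fcer1g lay above the 4 receptors at 0 and 1 h in WT (159 and 297) and below Fcgr1 at 18 h (218).

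The inhibitory receptor's share of the Pol II summed over the 4 receptor genes, per kb, put this in 1 figure per library. In WT it had a median of 5.54% at 0 h (5.5 to 5.7%), 43.4% at 1 h (42.9 to 46.2%) and 13.8% at 18 h (13.7 to 13.8%). In KO it was 4.31% (3.65 to 4.34%), 32.8% (32.5 to 33.0%) and 3.09% (2.72 to 3.15%). No KO library reached the lowest WT share at any time. The share peaked at 1 h in both genotypes, when Fcgr1 and Fcgr3 were at their lowest. This is Pol II on the genes, and no receptor protein was measured here.

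Across the 18 Pol II libraries the members did not follow a single pattern. As a description over libraries that share 6 groups, the correlation of log2 levels was 0.798 between Fcgr1 and Fcgr3 and 0.788 between Fcgr1 and Fcgr4. It was 0.79 between Fcgr2b and Fcer1g, 0.516 between Fcgr2b and Fcgr4 and 0.019 between Fcgr2b and Fcgr1. Of 13669 other genes, Esyt1 (0.997), Ms4a4a (0.996) and Acvrl1 (0.993) were most like Fcgr1, Ehd4 (0.993), Glg1 (0.989) and Zfp710 (0.988) most like Fcgr3, and Ly6e (0.966), 1810037I17Rik (0.962) and Fndc3a (0.954) most like Fcgr4. Those most like Fcgr2b included Trim12a (0.928) and Plcb3 (0.889), and those most like Fcer1g after Apoa2 were Pofut1 (0.872) and Lox (0.851). Trim12a had WT means of 96.7, 341 and 1391 tags at 0, 1 and 18 h and is listed at 0 in every KO group.

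Many genes around the chromosome 1 members differed between genotypes as well. Of 31 tested protein-coding genes within 100 kb of a member, 17 differed in Pol II between KO and WT averaged over the times, 6 higher and 11 lower, beside 26.3% of the 13669 genes tested other than the members. On chromosome 1 it was 14 of 19 (4 higher, 10 lower), and around Fcgr1 on chromosome 3 it was 3 of 12, near the share of all genes. The genes counted are not all separate measurements, as Apoa2 shares its Pol II region with Fcer1g and the bodies of Tomm40l and Nr1i3 overlap. Nr1i3, which encodes the nuclear receptor CAR, was higher in KO (log2 change 1.55, adjusted p = 2.2e-04), with means of 541, 186 and 285 tags in WT and 897, 674 and 1194 in KO at 0, 1 and 18 h. The Fc receptor-like gene Fcrla, 31034 bp from Fcgr2b, was also higher (0.93, adjusted p = 7.3e-08), with means of 21.9, 0 and 51.7 in WT and 53.3, 13.6 and 81.1 in KO. Atf6, an endoplasmic reticulum stress sensor 90846 bp from Fcgr2b, was lower (-0.61, adjusted p = 7.0e-06), with means of 1260.3, 219 and 1336 in WT and 699.7, 239 and 616 in KO. Atf6 was not called within 500 bp of the start (0.16) or with the input subtracted (-0.3, adjusted p = 0.07).

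The share of genes that differed stayed high well beyond the receptor genes. Of other genes on chromosome 1 that lay between the 4 members or within 0.1 Mb of them, 73.7% (14 of 19) were called in Pol II averaged over the times. The share was 62.5% (20 of 32) at 0.1 to 1 Mb, 55.6% (25 of 45) at 1 to 5 Mb and 25.7% (19 of 74) at 5 to 10 Mb, beside 25.9% of 12859 genes on other chromosomes. Within 5 Mb it was 61.5% (59 of 96), with 38 lower and 21 higher in KO. In H3K27ac it was 40.2% (37 of 92) within 5 Mb, beside 6.52% of 11575 genes on other chromosomes. The averaged H3K27ac calls behind these shares numbered 845 over all genes, 463 in a 1000 bp window and 3588 without KO replicate 1 at 1 h. The distance bins were chosen after values had been seen and carry no test. The labels give the same strain for both genotypes. Whether both carry the same sequence in this interval was not tested here, and neither was the part of the neighbourhood in the differences of the 4 members on chromosome 1. Fcgr1 lies on another chromosome.

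**Figure D5:**
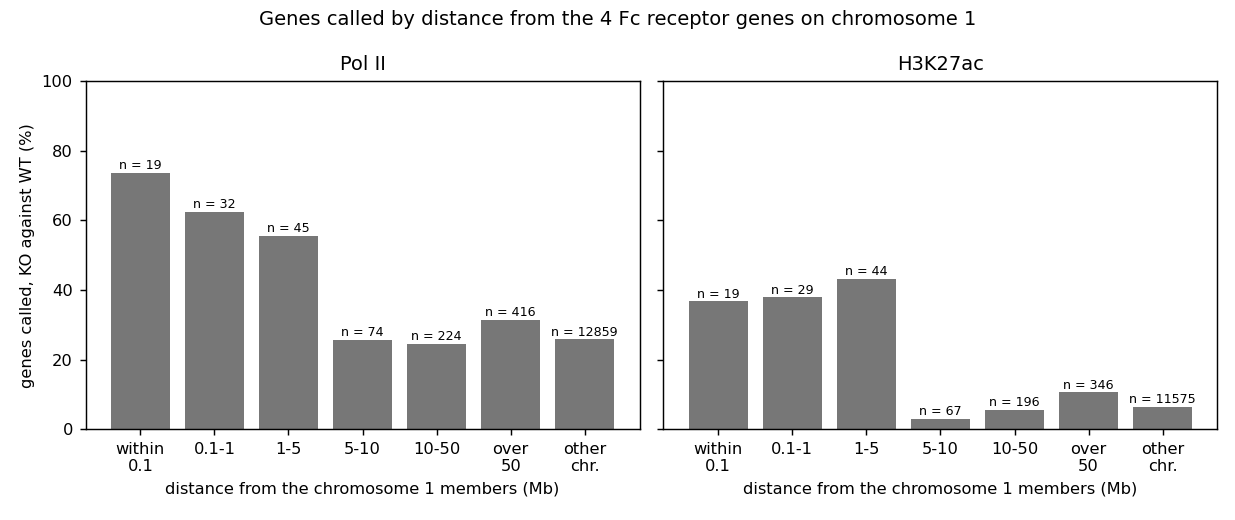
Percentage of genes that differ between KO and WT averaged over the 3 times (vertical axis) by distance in Mb from the 4 receptor cluster genes on chromosome 1 (horizontal axis), for Pol II and H3K27ac, with the number of genes tested above each bar, beside genes on other chromosomes; the members themselves are left out. The share is 73.7% within 0.1 Mb in Pol II, and 25.7% at 5 to 10 Mb.

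Genes of the rest of the Fc receptor pathway moved in both directions. Of 67 listed genes for other Fc receptors, kinases and adaptors, inhibitors, the phagocytic cup and oxidase, and other receptors that pair with Fcer1g, 62 were tested in Pol II. Averaged over the times, 13 were higher and 10 lower in KO, with a median log2 change of 0.04 beside 0.05 over all genes, of which 2502 were higher and 1103 lower of 13674. At 1 h 27 were higher and 7 lower of 61, and at 18 h 4 were higher and 15 lower of 62 (medians 0.16 and -0.11, beside 0.24 and -0.1). Over all genes 4603 were higher and 909 lower of 12079 at 1 h, and 967 and 1712 of 12806 at 18 h. Among the 25 kinases and adaptors 7 were higher and 7 lower on average, and of the 11 inhibitors, which include the phosphatase genes Inpp5d and Ptpn6, 1 was higher and 0 lower. Of the 14 genes of the phagocytic cup and oxidase 3 were higher and 1 lower. The called genes with the largest change were Fcrla (above), Fcrlb (0.52, adjusted p = 0.022) and Plcg1, a phospholipase C (0.51, adjusted p = 0.0067). Like Fcrla, Fcrlb is a neighbour of Fcgr2b, 45676 bp from it. Fcrlb and Plcg1 are low, with group means of 1.79 to 17.3 tags at Fcrlb and 2.42 to 14.7 at Plcg1 after LPS. Fcrlb was not called with quantile normalization, without the filter or with the density floor (adjusted p = 0.059 to 0.12), and read from 500 bp after the start neither was called (Plcg1 0.15, adjusted p = 0.5).

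At 18 h of LPS in WT, 33 pathway genes were higher and 16 lower than at 0 h in Pol II, and in KO 23 and 26. Over all genes it was 4439 higher and 4449 lower of 13359 in WT, and 3761 and 5651 of 13417 in KO. The largest changes in WT were those of Vav3, a guanine nucleotide exchange factor (log2 change -3.29, adjusted p = 2.2e-14), Clec4e, the Mincle receptor that signals through the Fcer1g chain (2.29, adjusted p = 3.4e-10), and Pik3cg, a phosphoinositide 3-kinase (-2.22, adjusted p = 1.2e-11). Vav3 had means of 5249 and 527 tags in WT at 0 and 18 h and 4653 and 320.3 in KO, and at 1 h it stood at 11307 in WT. Within 500 bp of the start alone the 18 h changes of Vav3 (-0.08, adjusted p = 0.72) and Pik3cg (-0.11, adjusted p = 0.58) were not called. Clec4e went from 414 to 2047 in WT and from 208 to 1796 in KO. In H3K27ac averaged over times 4 of 61 pathway genes tested were higher and 4 lower in KO, beside 457 and 388 of 12281 over all genes. The pathway calls were led by Fcrla (0.76, adjusted p = 0.015), Fcrlb (0.73, adjusted p = 5.1e-04) and the Src family kinase gene Fgr (-0.53, adjusted p = 0.045). Fcrla and Fcrlb are the neighbours of Fcgr2b described above, and the Fcrla group means were low, at 1.48 to 19.1 tags. The Fgr call was lost in 16 of the 18 runs that left out 1 library (adjusted p = 0.05 to 0.095), all but those without KO replicate 1 at 1 h or KO replicate 2 at 18 h, and without the filter, in a 1000 bp window and with the replicate block (adjusted p = 0.072 to 0.29). The largest H3K27ac changes at 18 h in WT included those at Clec4e (1.29, adjusted p = 4.3e-07) and Pik3cg (-1.23, adjusted p = 1.0e-07).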

How the data were processed

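Groups were taken from the sample titles. Reads had been trimmed (Skewer) and aligned to mm10 (HISAT2, version 2.1.0 in the submitters' processing notes) by the authors, who removed duplicates and called broad regions in each library with HOMER, without input. The HOMER version is not given in the sources used here. The headers give a window of 500 bp, a Poisson p of 0.001 and a joining distance of 1000 bp. The signal the authors deposited for each region is its number of tags, scaled to 10 M tags a library. A library with no region in a window was set to 0, which means that no region was found, not that no reads lay there, and the call depends on depth. Other deposited columns (scores, fold enrichment, p-values) were not used. The catalogue number of the Pol II antibody differs between the labels and the methods.

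Region tags were shared by overlap with windows of GENCODE vM21 genes (GRCm38; 54 genes with duplicate symbols left out). Values were compared as log2(normalized tags + 10) in limma 3.58.1 (R 4.3.3) with 6 group means, an intensity trend and two-sided tests. Fold changes on this scale understate those of low genes. Genes with signal in 2 or more of the 3 libraries of either group entered a test. Calls needed a p under 0.05 after Benjamini-Hochberg adjustment over every gene in that comparison. The script was tested on simulated data. All 5 members passed the filter in every comparison. Folds in the text are ratios of group means. Tables and plots used Python 3.11.15, pandas 2.3.3, numpy 2.4.6, scipy 1.17.1, matplotlib 3.10.9, samtools 1.23.1, and R read tables with the data.table package (1.17.8). Promoters came from RefSeq (GRCm38.p6).

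The members and lists were chosen with earlier results of these data known. The named genes were the 5 members, Nr4a1, the 3 pathway genes per antibody with the largest called change in KO against WT averaged over the times and at 18 h LPS in WT, called neighbours within 100 kb, and the 3 genes most like each member. A few genes that this rule names are not reported here. Alternatives covered the pseudocount, library scaling, filters, windows, input subtraction, a common density floor, a replicate block and leaving out each library.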

Additional observations from a re-analysis of the deposited data

Results flagged for a closer look

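The LPS change of Pol II differed between the genotypes at all 5 members at 1 h, with interactions of -1.31 at Fcgr2b, -1.09 at Fcgr1, -0.89 at Fcgr3, -0.48 at Fcgr4 and -0.45 at Fcer1g on the log2 scale. At 18 h it differed at Fcgr2b (-2.29), Fcgr1 (-0.43) and Fcgr3 (-0.39). In H3K27ac it differed at Fcgr2b at 18 h (-1.33). Each was chosen because the interaction term itself was called by limma, and a negative value means that the LPS change was lower in KO. The 18 h values of Fcgr1 and Fcgr3 and the 1 h values of Fcgr4 and Fcer1g lost their call under some other settings or with 1 library left out, and the 1 h value of Fcgr3 lost it within 500 bp of the start. The comparisons share the untreated libraries. At Fcgr1 and Fcgr3 the 1 h values come from a deeper decrease in KO from a similar start, and at Fcgr2b and Fcer1g from a smaller increase in KO.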

How the results depend on the processing

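Of the log2 changes of named genes, 1110 kept their direction and side of the threshold under alternatives other than a left-out library, 64 lost and 22 gained a call, and 24 turned. With 1 library left out the numbers were 2000, 74, 17 and 15. Fcgr2b kept its lower Pol II in KO at 1 h, at 18 h and on average in 28 of 28 alternatives, and its lower H3K27ac at the same points in 29 of 29. In WT every Pol II window of Fcgr2b held 43.5 tags per kb at 1 h and 67.8 at 18 h, so the windows are not separate measurements there. The causes were not tested. The RefSeq start was chosen after seeing the data. With Pol II read within 500 bp of the start, Fcgr3 at 0 h was -0.86 in KO and called, Atf6 0.16 on average, and Fcgr4 0.31 in WT and 0.19 in KO at 1 h of LPS, and the members called numbered 1 in KO at 0 h, 3 for LPS at 1 h in KO, and 2 and 1 for the interaction at 1 and 18 h. Read from 500 bp after the start, Fcrlb was -0.03, Fcgr2b in KO at 18 h of LPS -0.01 and the 18 h interaction of Fcgr4 0.07. Centring on medians and quantile normalization turned Fcgr4 at 1 h of LPS in WT to 0.5 and 0.5 and its 18 h interaction to 0.1 and 0.11, and quantile normalization turned Fcgr4 at 1 h in KO to 0.05 and the 18 h interaction of Fcer1g in H3K27ac to 0.01. Centring turned that of Fcer1g in Pol II to 0.03, left 2 members called in KO at 18 h and 1 for the 18 h interaction. With input subtracted, 3 and 1 were called there, and the 18 h interaction of Fcgr4 was 0.01. A common density floor left 1 member called in KO at 0 h.

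In H3K27ac at 0 h, 2 members were called with either scaling or a window of 5000 bp and 0 with the RefSeq start or input subtracted. The RefSeq start left 1 member each at 1 and 18 h, and the 1 h interaction had 1 with either scaling, the 5000 bp window, input subtracted or the floor. Fcgr3 turned to 0.04 (1000 bp window) and 0.01 (input) at 1 h of LPS in WT. At 18 h it turned to -0.09 (5000 bp) and -0.54 (RefSeq start) in WT and to -0.49 and -0.48 in KO, and its interaction to 0.06 (RefSeq start). The Fcgr1 interactions turned to 0.03 and -0.09 at 1 and 18 h (1000 bp).

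With 1 library left out, 1 to 3 members were called in Pol II at 0 h, 3 to 5 at 18 h and 3 to 5 for the 1 h interaction. In H3K27ac it was 0 to 2 at 0 h, 2 to 4 at 1 h and 0 to 1 for the 1 h interaction. Values that turned then ranged from -0.08 to 0.09 for Fcgr2b in KO at 18 h of LPS and from -0.18 to 0.03 for the 18 h interaction of Fcgr4 in Pol II. In H3K27ac they ranged from -0.25 to 0.09 for Fcgr1 in KO against WT at 18 h, from -0.11 to 0.37 for Fcgr3 in KO at 18 h of LPS, from -0.24 to 0.02 and from -0.11 to 0.24 for the 1 and 18 h interactions of Fcgr1, and from -0.27 to 0.13 for the 18 h interaction of Fcer1g.

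Calls over all genes changed more, from 300 to 1985 in Pol II at 0 h (911 as reported), 517 to 4822 at 18 h (2679), 440 to 5389 in H3K27ac at 1 h (2156) and 27 to 3632 for its 1 h interaction (65). The median gene lay at 0.243 in Pol II at 1 h in KO against WT and at -0.005 after centring, and 83.5%, 42.7% (centred) and 54.1% (quantile) of calls were higher. At 18 h the median was -0.104 and the shares 36.1%, 66.2% and 50.5%. A member's change is thus to be read against these shifts.

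The deviations of libraries with the same replicate number had correlations of -0.071 to 0.107 in Pol II and -0.432 to 0.08 in H3K27ac. Those with different numbers had -0.142 to 0.128 and -0.326 to 0.413. In H3K27ac the widest values of either kind were between KO libraries at 1 h and at 18 h. Deviations were taken from means of 3 libraries, so they cannot show whether libraries shared an animal or a batch. With a replicate block, 4 members in place of 5 were called in Pol II at 18 h, 2 in place of 3 for the 18 h interaction and 2 in place of 3 in H3K27ac on average, and no other count of members moved. Regions were called per library, so weak signal in shallow libraries can be listed at 0.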
